A study of Mus musculus with 9 samples.

Results

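Axonal injury in a neuron switches on a set of genes that are silent or weak in the uncut cell and that are known from regenerating peripheral nerves and from retinal ganglion cells after optic nerve damage. Transcription factors such as ATF3, JUN, SOX11 and members of the Kruppel-like family act early, and effectors of the cell surface, the cytoskeleton and the growth cone follow. Dissecting a retina for culture cuts the axons of all ganglion cells, so explants are axotomised tissue. The genes of this set described here across retinal explant libraries are Sprr1a, a small proline-rich protein that is induced in injured neurons; Gap43 and Stmn2, a membrane protein and a tubulin-binding protein of growth cones; the transcription factors Sox11, Klf6 and Klf4; Ecel1, a membrane protease-like protein induced by nerve injury; and Gal, the neuropeptide galanin. These 8 genes, of 55487 in the count table and 21049 that could be tested, were chosen by name, with the values of this same comparison known. Their fold changes are therefore given as a description with no test. All 8 passed the filter on low counts.

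The explants came from wild-type C57BL/6J mice aged 28 days after birth. Each retina was freed of the cornea, iris, sclera and retinal pigment epithelium and kept in culture for 48 h with 5 mM glucose. The control group (n = 5 libraries) had no further addition, and the 2-DG group (n = 4) received 20 mM 2-deoxy-D-glucose, a glucose analog that cannot be metabolised through glycolysis. A rinse and a further 1 h in Krebs' Ringer medium followed in both groups before total RNA was extracted and sequenced. The titles call the libraries biological replicates without saying whether each came from a separate animal, so errors and p-values measure the spread between these libraries.

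Library totals ranged from 11317734 to 51802249 estimated counts, and 3 counts corresponded to between 0.0556 and 0.255 CPM (counts scaled by the TMM-adjusted library size). Mitochondrial genes took between 3.40% and 13.6% of the counts. Control replicate 2 stood apart. Its rod marker genes summed to 38210 CPM, against 4452 to 13024 CPM in the other control libraries and 6708 to 13995 CPM with 2-DG. Its ganglion cell marker sum was 1543 CPM, against 305 to 921 CPM in the other controls. The fold changes of the 8 genes and the counts of the gene lists are therefore given with and without this library.

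The promoters of Sprr1a, Sox11 and Klf4 are shown first, because these are the members whose groups separated once control replicate 2 was left out. They are the 250 bases before the RefSeq transcription start on GRCm38.p6, minus strand, read 5′ to 3′ toward the gene. Capitals mark every match to the AP-1 site TGANTCA or the GC box GGGCGG on either strand.
Sprr1a, chr3:92485882-92486131: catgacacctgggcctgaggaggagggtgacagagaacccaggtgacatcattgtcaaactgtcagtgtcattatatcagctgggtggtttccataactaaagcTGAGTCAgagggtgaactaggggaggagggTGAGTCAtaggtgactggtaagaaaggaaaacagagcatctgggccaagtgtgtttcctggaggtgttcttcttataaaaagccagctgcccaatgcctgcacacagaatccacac
Sox11, chr12:27342719-27342968: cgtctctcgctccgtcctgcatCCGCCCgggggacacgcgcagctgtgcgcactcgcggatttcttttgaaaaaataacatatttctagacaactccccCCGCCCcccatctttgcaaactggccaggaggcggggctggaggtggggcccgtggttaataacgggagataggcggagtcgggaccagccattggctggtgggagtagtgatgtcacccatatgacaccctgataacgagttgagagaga
Klf4, chr4:55532476-55532725: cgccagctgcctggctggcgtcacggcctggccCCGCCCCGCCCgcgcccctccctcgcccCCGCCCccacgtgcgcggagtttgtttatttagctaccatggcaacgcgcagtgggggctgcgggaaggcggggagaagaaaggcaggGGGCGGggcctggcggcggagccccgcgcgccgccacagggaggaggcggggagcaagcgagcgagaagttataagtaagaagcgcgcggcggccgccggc
AP-1 is the dimer that JUN and ATF3 can form part of, and GC boxes and CACCC boxes are the kind of sequence that Kruppel-like factors recognise. RefSeq promoter entries were matched for 6 of the 8 genes, namely Sprr1a, Sox11, Klf6, Klf4, Ecel1 and Gal. The window searched ran from 250 bases before to 50 bases after the start. Sprr1a held 2 AP-1 matches, which begin 146 and 116 bases before the start, and the other 5 promoters held 0. Among all 32851 RefSeq mouse promoters of this length, 7.81% held an AP-1 match. The Sprr1a promoter also held 4 matches to CACCC, of which 1 overlaps the second AP-1 match by 2 bases, and no GC box. Klf4 held 4 GC boxes, of which the 2 farthest from the start overlap each other by 1 base, Sox11 held 2, and Klf6 and Gal held 1 each, where 35.7% of all promoters held at least 1. Matches to CACCC were found in Sprr1a, Sox11 and Gal and in 57.5% of all promoters. The E-box CACGTG was found in Klf6 and Klf4 and in 7.15% of all promoters. The cyclic AMP response element TGACGTCA was in none of these 6 windows and in 1.79% of all promoters. These are matches of letters, with no measurement of binding.

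Sprr1a (chr3:92483952-92485895 on GRCm38, minus strand) had the largest ratio of the highest to the lowest library of the 8 genes, 151. Its level was 49.3, 0.716, 54.4, 108 and 47.5 CPM in control replicates 1 to 5. With 2-DG it was 19.8, 6.50, 3.76 and 11.2 CPM in replicates 1 to 4. Every 2-DG library lay below 4 of the 5 control libraries, and control replicate 2 lay below all of them, with 10 counts. The groups therefore overlapped through that library alone. The log2 fold change, 2-DG over control, was -2.34 with a standard error (SE) of 0.94 over all 9 libraries and -2.67 with an SE of 0.53 without control replicate 2. Mean levels were 52.0 ± 38.1 CPM (SD, n = 5) in control and 10.3 ± 7.02 CPM (SD, n = 4) with 2-DG. In bulk tissue, fewer cells of a type and less RNA per cell cannot be told apart, here and for the genes that follow.

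Sprr1a belongs to a family whose members build the cornified envelope of skin and mucosa. The paralogs Sprr1b, Sprr2a1 and Sprr3 had 0 counts in all 9 libraries, and Sprr2h reached at most 0.0646 CPM. Of 10 marker genes of surface epithelium (cornea, conjunctiva and skin), Ivl was at 0 in every library. The keratins Krt5, Krt12, Krt13 and Krt14 stayed at or below 0.408 CPM. Krt15 stayed at or below 0.537 CPM and the loricrin gene Lor at or below 0.849 CPM, and these 2 passed the filter on low counts. The summed level of the 10 genes ranged from 0.905 to 1.45 CPM in control and from 0.840 to 1.69 CPM with 2-DG. These markers were thus at or near 0 in all libraries. Another cornified envelope gene, Lce1g, which is not in the list, did reach 40.7 CPM, in control replicate 4, where Sprr1a was at 108 CPM. The cell type that gave the Sprr1a reads was not tested.

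**Figure D1:**
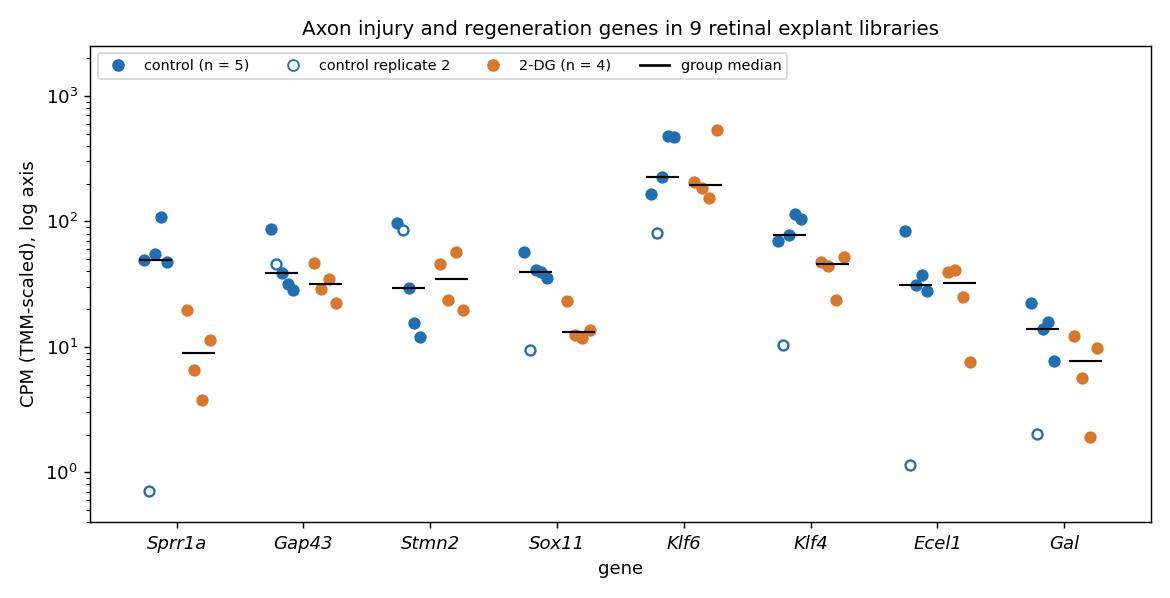
Level of the 8 genes in each library, as CPM on TMM-scaled library sizes (log axis), for control (blue, n = 5) and 2-DG (orange, n = 4), with the group median as a bar. Control replicate 2 (open circle) is the lowest of the 9 libraries in Sprr1a, Sox11, Klf6, Klf4 and Ecel1 and the second highest in Stmn2.

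Sox11 and Klf4 shared this layout. Sox11 (chr12:27334264-27342574, minus strand) is a transcription factor of immature neurons that returns in injured sensory neurons and ganglion cells. It measured 56.7, 9.45, 40.8, 39.7 and 35.2 CPM in control replicates 1 to 5 and 23.2, 12.5, 11.7 and 13.7 CPM in 2-DG replicates 1 to 4. Without control replicate 2 the lowest control, at 35.2 CPM, stood above the highest 2-DG library, at 23.2 CPM. Its log2 fold change was -1.26 (SE 0.44) over all 9 libraries and -1.50 (SE 0.27) without control replicate 2.

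Klf4 (chr4:55527143-55532466, minus strand) is known as a brake on axon growth in ganglion cells, unlike Sox11 and Klf6. It measured 69.4, 10.4, 77.8, 114 and 104 CPM in control replicates 1 to 5. With 2-DG it measured 47.0, 43.7, 23.4 and 52.0 CPM. All 2-DG libraries again lay between control replicate 2 and the other 4 controls. The log2 fold change was -0.86 (SE 0.54) over all libraries and -1.14 (SE 0.28) without that library. The growth-restricting member thus had the same sign as Sprr1a and Sox11. Sox9, a transcription factor and 1 of 6 Muller glia markers, had a layout like that of these 3 genes, with 112, 20.9, 115, 196 and 194 CPM in control and 25.2, 37.2, 14.0 and 34.3 CPM with 2-DG, except that control replicate 2 lay above 2-DG replicate 3. The Sox9 groups separated once that library was left out. Among the other 5 markers, control replicate 2 was the lowest control for Slc1a3, at 86.1 CPM, and not for Rlbp1, at 813 CPM, Glul, the most abundant, at 2154 CPM, Kcnj10 or Aqp4. The part of Muller glia in the values of the 3 genes was not tested.

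Klf6 (chr13:5861482-5870394, plus strand), a Kruppel-like factor known to promote axon growth, followed other lines than the treatment. Control replicates 1 to 5 were at 165, 81.1, 226, 482 and 467 CPM, and 2-DG replicates 1 to 4 at 206, 183, 153 and 535 CPM. Its 3 highest libraries were 2-DG replicate 4 and control replicates 4 and 5. These were also the 3 with the highest sums of 7 endothelium and pericyte markers, at 2597, 1133 and 2066 CPM, against 313 to 1003 CPM in the other libraries. Of the 7, Cldn5 and Cdh5 were highest in the same 3 libraries and the other 5 were not. The mitochondrial share of the counts was 13.6%, 6.68% and 9.97% in them, and 10.7% in control replicate 2, where Klf6 was lowest. The part of these cells and of RNA quality in the Klf6 values was not tested. The log2 fold change was -0.08 (SE 0.55), or -0.32 (SE 0.49) without control replicate 2, within the spread of either group. Its sign was positive in 6 of 18 alternative analyses, and the value was -0.66 without 2-DG replicate 4.

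The growth cone genes behaved unlike Sprr1a. Gap43 (chr16:42248442-42340651, minus strand) measured 87.1, 46.1, 39.0, 31.7 and 28.3 CPM in control and 46.3, 28.8, 34.5 and 22.2 CPM with 2-DG, so that control replicate 1 was the one control outside the range of the treated libraries. Stmn2 (chr3:8509360-8561606, plus strand) measured 97.4, 85.1, 29.5, 15.4 and 11.99 CPM in control and 45.8, 23.5, 56.6 and 19.5 CPM with 2-DG. For Stmn2 the control group enclosed every treated library. The log2 fold change was -0.50 (SE 0.36) for Gap43 and -0.40 (SE 0.63) for Stmn2, and without control replicate 2 it was -0.50 (SE 0.39) and -0.09 (SE 0.66). Both values rested on control replicate 1, without which they were -0.14 and 0.04. Stmn2 was also at -0.23 without 2-DG replicate 2 and -0.19 without 2-DG replicate 4, and at -0.65 or -0.69 without control replicate 4, control replicate 5 or 2-DG replicate 3. Control replicate 2, which had nearly no Sprr1a, held the second highest Stmn2 level and the third highest Gap43 level.

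Ecel1 (chr1:87147655-87156521, minus strand) measured 83.8, 1.15, 31.4, 37.4 and 27.6 CPM in control and 39.7, 40.9, 25.0 and 7.58 CPM with 2-DG. Beside the controls other than replicate 2, 2-DG replicates 1 and 2 lay within their range and 2-DG replicates 3 and 4 below it. Gal (chr19:3409915-3414544, minus strand) measured 22.3, 2.00, 13.9, 15.9 and 7.69 CPM in control and 12.2, 5.66, 1.91 and 9.78 CPM with 2-DG. For Gal, control replicate 2 and 2-DG replicate 3 were both near the bottom. The log2 fold change was -0.36 (SE 0.82) for Ecel1 and -0.75 (SE 0.66) for Gal. Without control replicate 2 these were -0.68 (SE 0.53) and -1.03 (SE 0.54), and without control replicate 1 they were 0.21 and -0.43. Ecel1 was at -0.05 without 2-DG replicate 4 and at -0.56 and -0.59 without 2-DG replicates 1 and 2, and Gal at -0.43 without 2-DG replicate 3. The galanin receptors were scarce: Galr1 stayed at or below 0.840 CPM, and Galr2 and Galr3 did not pass the filter on low counts.

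The distance of control replicate 2 from its group differed widely among the 8 genes. The mean of the other 4 controls was 90.5 times its level for Sprr1a and 39.3 times for Ecel1. The ratio was 8.79 for Klf4, 7.46 for Gal, 4.56 for Sox11 and 4.13 for Klf6. For Gap43 it was 1.01, and for Stmn2 the library stood above the others, with a ratio of 0.453. The lower levels in this library thus spanned the effector, the transcription factors and the peptide genes and left out both growth cone genes. Of 11 ganglion cell markers, 7 were highest in this same library, and Nefl made up 967 of its summed 1543 CPM. Leaving out Nefl, the sum was 575 CPM there and 618 CPM in control replicate 1. Rbpms, Slc17a6, Pou4f1 and Nefm were not highest in it, at 24.1, 37.1, 11.7 and 89.1 CPM. Whether library composition had a part in these values was not tested.

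**Figure D2:**
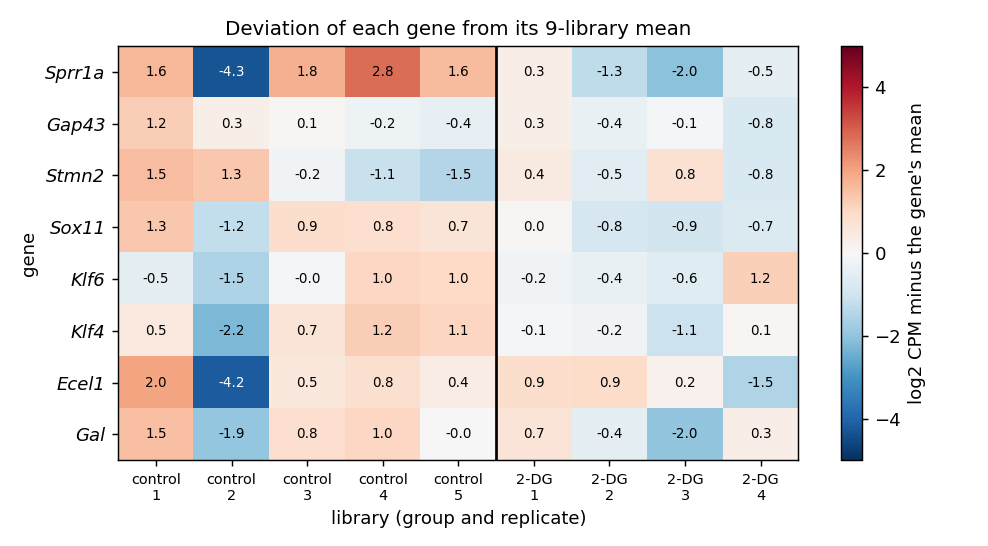
Deviation of log2 CPM from each gene's mean over the 9 libraries (color, log2 units, printed in each cell), with control at the left and 2-DG at the right of the line. Control replicate 2 is at -4.3 for Sprr1a and -4.2 for Ecel1 but at 0.3 for Gap43 and 1.3 for Stmn2.

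All 8 genes had a negative log2 fold change in both fits, with a median of -0.62 over all 9 libraries and -0.85 without control replicate 2. Over all genes tested the median was -0.01 and 0.03. The share of all genes with a negative value was 50.8% and 46.9%. Since the members were chosen on these values, nothing is read from this, nor from the separation of their groups. Without control replicate 1 instead, 6 of the 8 were negative and the median was -0.33. In the deposited CPM, on log2(CPM + 1), 7 were negative, with a median difference of group means of -0.57.

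Every 2-DG library lay below every control library for 0 of the 8 over all libraries, where 1.41% of all genes had this layout. Without control replicate 2 it did so for 3 of the 8, Sprr1a, Sox11 and Klf4, beside 4.51% of all genes. The opposite layout, every 2-DG library above every control library, was found in 0 of the 8 in both fits, beside 1.52% of all genes over all libraries and 2.61% without control replicate 2.

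**Figure D3:**
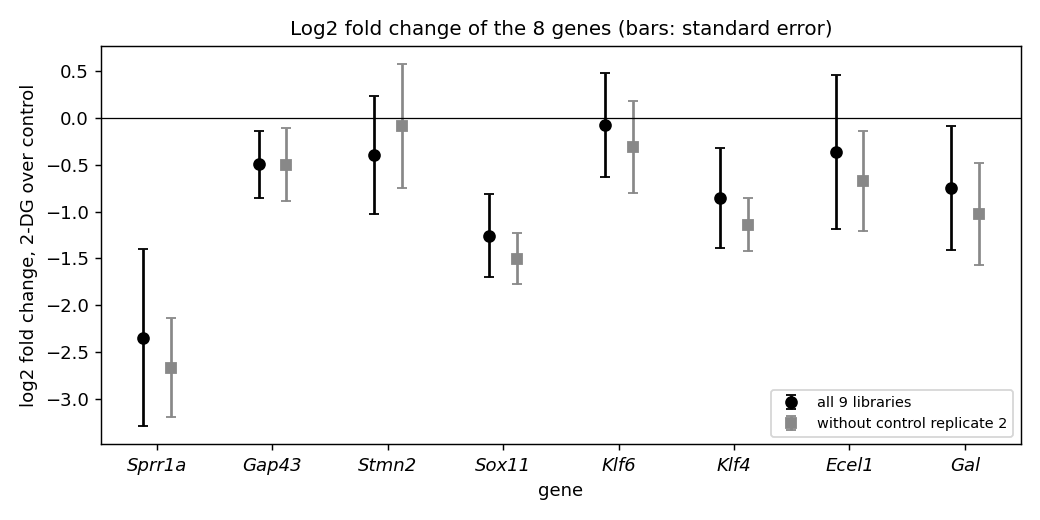
Log2 fold change, 2-DG over control, of each gene with its standard error, over all 9 libraries (circles) and without control replicate 2 (squares). Leaving out this library shortened the error bar of Sprr1a from 0.94 to 0.53 and moved Stmn2 from -0.40 to -0.09.

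To compare levels between genes, CPM were divided by the merged exon length of all annotated transcripts. For Stmn2 that length, 5602 bases, takes in retained-intron transcripts, of which Stmn2-202 held at most 2.49% of the counts in control. The order of the genes thus depends in part on the annotation. In control, Klf6 led with 64.7 ± 41.2 CPM per kb (SD, n = 5), beside Sprr1a with 64.5 ± 47.3 and Gap43 with 30.5 ± 15.6 CPM per kb. Klf4 was at 24.6 ± 13.3, Gal at 15.7 ± 9.90 and Ecel1 at 10.4 ± 8.56 CPM per kb. Stmn2 followed at 8.54 ± 7.21 and Sox11 at 4.38 ± 2.06 CPM per kb. The means of Sprr1a and Klf6 changed places once control replicate 2 was left out, at 80.4 and 76.3 CPM per kb, and the others kept their order, from Gap43 at 30.5 to Sox11 at 5.19 CPM per kb. Over all 5 controls, no neighbours in this order were apart by more than the larger of their SDs. With 2-DG, Klf6 again led with 61.3 ± 40.7 CPM per kb (SD, n = 4), and Sprr1a, at 12.8 ± 8.71, came after Gap43 with 21.7 ± 6.72 and Klf4 with 13.6 ± 4.11 CPM per kb.

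The transcript counts mostly came from 1 coding transcript per gene. Sprr1a and Sox11 have 1 annotated transcript each. The lowest share of the gene's counts that the leading transcript held in any library was 89.0% for Gap43, 94.8% for Stmn2, 92.3% for Klf6, 96.3% for Klf4 and 87.0% for Gal. Ecel1 was divided among 5 transcripts, and the coding Ecel1-201 held a median of 47.8% in control and 54.4% with 2-DG. In control replicate 2, with 16 gene counts, Ecel1-201 was at 0.

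The genes whose pattern was most like Sprr1a, by Pearson r of log2 CPM over the 9 libraries among 14479 other protein-coding genes with a mean of at least 1 CPM, were Sdc1, Lce1g, Smad7, Rhov and Klf4. Correlation here describes 9 libraries that share their treatment groups and the low control replicate 2. For Sdc1, the proteoglycan syndecan-1, r was 0.98 and Spearman's rho 0.98. For Lce1g, a late cornified envelope gene that like Sprr1a lies in the epidermal differentiation complex, r was 0.98 and rho 0.93, and its level ran from 0.0716 CPM in control replicate 2 to 40.7 CPM in control replicate 4. Smad7, an inhibitor of TGF-beta signalling, had an r of 0.97 (rho 0.90), Rhov 0.97 (rho 0.92) and Klf4 0.97 (rho 0.93). Without the 2 libraries farthest from the Sprr1a median, control replicates 2 and 4, r was between 0.91 and 0.95 for these 5 genes, and without control replicate 2 alone it was between 0.93 and 0.96.

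Among the members, Sox11 (r = 0.91, rho = 0.93) and Gal (r = 0.88, rho = 0.88) came next after Klf4. Ecel1 had an r of 0.74, and of 0.36 without control replicate 2. Klf6 had an r of 0.68, or 0.43 without that library. Gap43 (r = 0.07, rho = 0.07) and Stmn2 (r = -0.49, rho = -0.37) ran along other lines, but resembled each other, with an r of 0.80 and a rho of 0.83 over 9 libraries and an r of 0.82 without control replicate 2. Within the groups, after subtracting each group's mean and without control replicate 2, r with Sprr1a was 0.79 for Gal, 0.76 for Klf4, 0.60 for Sox11 and 0.45 for Klf6, and it was -0.02 for Gap43, -0.06 for Ecel1 and -0.24 for Stmn2.

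The wider injury and regeneration programme was followed in 6 lists with 124 genes, of which 115 were tested. These lists too were chosen with earlier results of these data known. The counts and p-values given for them are therefore not independent evidence on the programme. By edgeR's quasi-likelihood test, 0 passed an adjusted p of 0.05 over all 9 libraries, where 0% of all genes did, and 0 without control replicate 2, where 0.0775% did. At an unadjusted p of 0.05, 7 were lower and 2 higher over all 9 libraries, beside 7.25% of all genes, and 14 lower and 1 higher without control replicate 2, beside 8.99%. DESeq2 called 2 of the 115, Gdnf and Itga7, beside 1.35% of all genes, and 7 without control replicate 2, beside 3.78%. Limma-voom with quality weights called 8, beside 5.81%, and 20 without control replicate 2, beside 10.1%. Over all 9 libraries these shares were near those of all genes. In both fits 64 of the 115 had a negative and 51 a positive log2 fold change, which is 55.7% negative beside the 50.8% and 46.9% of all genes given above. The median was -0.06 and -0.08.

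The 17 injury transcription factors, all tested, had a median log2 fold change of -0.02, with 10 negative and 7 positive, or -0.06 without control replicate 2. Atf3, a stress-induced factor that marks injured neurons, measured 158, 63.0, 195, 339 and 545 CPM in control and 96.5, 88.3, 76.0 and 204 CPM with 2-DG. Its log2 fold change was -1.16 (SE 0.56, adjusted p = 0.709 by edgeR) and -1.39 (SE 0.32, adjusted p = 0.0364) by limma-voom, and DESeq2 did not call it. Jun, a core component of AP-1, had -0.66 (SE 0.50), Sox4, a relative of Sox11, -0.36 (SE 0.63), and Hif1a, the oxygen-regulated factor and the most abundant of the list, 0.42 (SE 0.47). Control replicate 2 was the lowest control for Atf3, Jun and Sox4, with 205 CPM for Jun and 40.5 CPM for Sox4, but not for Hif1a. None of these groups separated without it, and the log2 fold change was then -0.58 for Sox4 and 0.25 for Hif1a by edgeR. For Sox4, limma-voom without that library gave -1.61 (SE 0.35, adjusted p = 0.0241), and for Atf3 -1.57 (SE 0.28, adjusted p = 0.0117).

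Of the 15 Kruppel-like factors beside Klf4 and Klf6, 13 were tested, with 7 negative and 6 positive and a median of -0.08, or -0.20 without control replicate 2. Klf7, a promoter of axon growth, measured 73.4 ± 18.9 CPM (SD, n = 5) in control and 68.4 ± 8.20 CPM (SD, n = 4) with 2-DG, a log2 fold change of -0.10 (SE 0.24). Klf9, a restrictor of growth, had -0.15 (SE 0.20), and Klf10 had -0.08 (SE 0.32). Values of the 13 ran from -2.18 to 0.51. At an unadjusted p of 0.05 by edgeR, 1 was lower and 1 higher, beside 7.25% of all genes. With control replicate 2 left out, Klf7 was at -0.26 and Klf10 at -0.25. Every 2-DG library then lay below every control for 1 of the 13, Klf14, beside 4.51% of all genes. Klf14 stayed at or below 0.743 CPM, and limma-voom called it at -2.83 over all 9 libraries, where its groups overlapped (adjusted p = 0.0331), as did DESeq2 without control replicate 2 (adjusted p = 0.0133).

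The 26 growth cone and cytoskeleton genes were split evenly, with 13 negative and 13 positive and a median of -0.02. With control replicate 2 left out, 17 were positive and the median was 0.18. Basp1, a growth cone protein akin to GAP43, had a log2 fold change of -0.36 (SE 0.36), the neuronal tubulin Tubb3 0.24 (SE 0.44), the abundant Tuba1a 0.43 (SE 0.40) and Map1b 0.34 (SE 0.27). Basp1 was at -0.24 and Tubb3 at 0.44 without control replicate 2. As with Gap43 and Stmn2, control replicate 2 was not low in Basp1 or Tubb3, at 109 and 65.01 CPM, the second highest control for Basp1 and the highest for Tubb3. These are 2 genes of the 26. Without that library limma-voom called 1 of the 26, Marcksl1, beside 10.1% of all genes, at -1.62 (SE 0.43, adjusted p = 0.0455).

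Of the 24 neuropeptide, growth factor and receptor genes, 22 were tested, with 15 negative and 7 positive and a median of -0.25. Leaving out control replicate 2 gave 18 negative and a median of -0.42. Gdnf, a survival factor for neurons, measured 9.50, 1.503, 11.99, 19.1 and 7.95 CPM in control and 2.72, 2.49, 0.704 and 2.29 CPM with 2-DG. Control replicate 2 lay above 2-DG replicate 3 and below the other libraries. Its log2 fold change was -2.30 (SE 0.66) with an adjusted p of 0.524 by edgeR, 0.0276 by DESeq2 and 0.0186 by limma-voom, and without control replicate 2 the adjusted p by edgeR was 0.0784. Npy, the injury-induced neuropeptide Y, had -0.94 (SE 0.42, adjusted p = 0.689 by edgeR) and Bdnf -0.63 (SE 0.34). Il6 and its receptor subunit gene Il6st, the most abundant of the list, had -0.27 (SE 0.87) and -0.05 (SE 0.40), or -0.48 and -0.28 without control replicate 2. Over all 9 libraries DESeq2 called 1 and limma-voom 2 of the 22, beside 1.35% and 5.81% of all genes. With that library left out, DESeq2 called 2, beside 3.78%, among them Gdnf (adjusted p = 1.61e-05). Limma-voom then called 6, beside 10.1%. Among them were Gdnf (adjusted p = 0.00523), Bdnf (-0.94, adjusted p = 0.0441), Il6st (-0.55, adjusted p = 0.0490) and Galr1 (-1.83, adjusted p = 0.0484).

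Of the 21 injury-induced effectors, 16 were tested, with 11 negative and 5 positive and a median of -0.22. The median was -0.45 without control replicate 2, and then in 4 of the 16 every 2-DG library lay below every control, namely Itga7, Cd44, Ngfr and Tnfrsf12a, beside 4.51% of all genes. Itga7, the integrin subunit alpha 7 of regenerating neurons, measured 31.8, 18.5, 30.8, 47.3 and 49.7 CPM in control and 14.2, 18.4, 12.2 and 18.8 CPM with 2-DG. Its log2 fold change was -1.16 (SE 0.31), with an adjusted p of 0.524 by edgeR, 0.0389 by DESeq2 and 0.0139 by limma-voom. Cd44, the hyaluronan receptor, measured 408, 24.6, 373, 538 and 311 CPM in control and 202, 268, 81.3 and 109 CPM with 2-DG, and its log2 fold change was -1.01 (SE 0.67) by edgeR. With control replicate 2 left out it was -1.31 by edgeR, -1.29 by DESeq2 (adjusted p = 0.0488) and -1.15 by limma-voom (adjusted p = 0.0335). In the same libraries DESeq2 called 4 and limma-voom 7 of the 16, beside 3.78% and 10.1% of all genes, and not all are named here. DESeq2 also called Itga7 (adjusted p = 0.000149) and Ngfr (adjusted p = 0.00682). Limma-voom called both of these (adjusted p = 0.00536 and 0.0161), Tnfrsf12a (adjusted p = 0.0269) and Hspb1 (adjusted p = 0.0266). Hspb1, a small heat shock protein gene, had -1.22 (SE 0.86) by edgeR and -2.13 (SE 0.52, adjusted p = 0.0406) by limma-voom, and Itgb1, the common integrin beta subunit, 0.45 (SE 0.44), or 0.30 without control replicate 2.

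The 22 genes of DLK and JNK signalling, axon degeneration and brakes on growth were all tested, with 9 negative and 13 positive and a median of 0.13, or 0.17 without control replicate 2. Map3k12, which encodes the kinase DLK that starts the injury signal, measured 57.6 ± 23.2 CPM (SD, n = 5) in control and 59.3 ± 20.9 CPM (SD, n = 4) with 2-DG, a log2 fold change of 0.04 (SE 0.37), or 0.18 without control replicate 2. Socs3, an inhibitor of cytokine signalling and of axon regrowth, had -0.74 (SE 0.54), Rtn4, which encodes Nogo, -0.26 (SE 0.26), and the JNK scaffold Mapk8ip3 0.28 (SE 0.34). Over all 9 libraries, 0 of the 22 genes passed the threshold by edgeR, where 0% of all genes did, 0 by DESeq2, beside 1.35%, and 0 an unadjusted p of 0.05 by edgeR, beside 7.25%. Limma-voom called 1, Tsc1, beside 5.81%, at 0.68 (SE 0.17, adjusted p = 0.0412). It called 2, Tsc1 and Socs3, once control replicate 2 was left out, beside 10.1%, with Socs3 at -1.10 (SE 0.22, adjusted p = 0.0175).

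**Figure D4:**
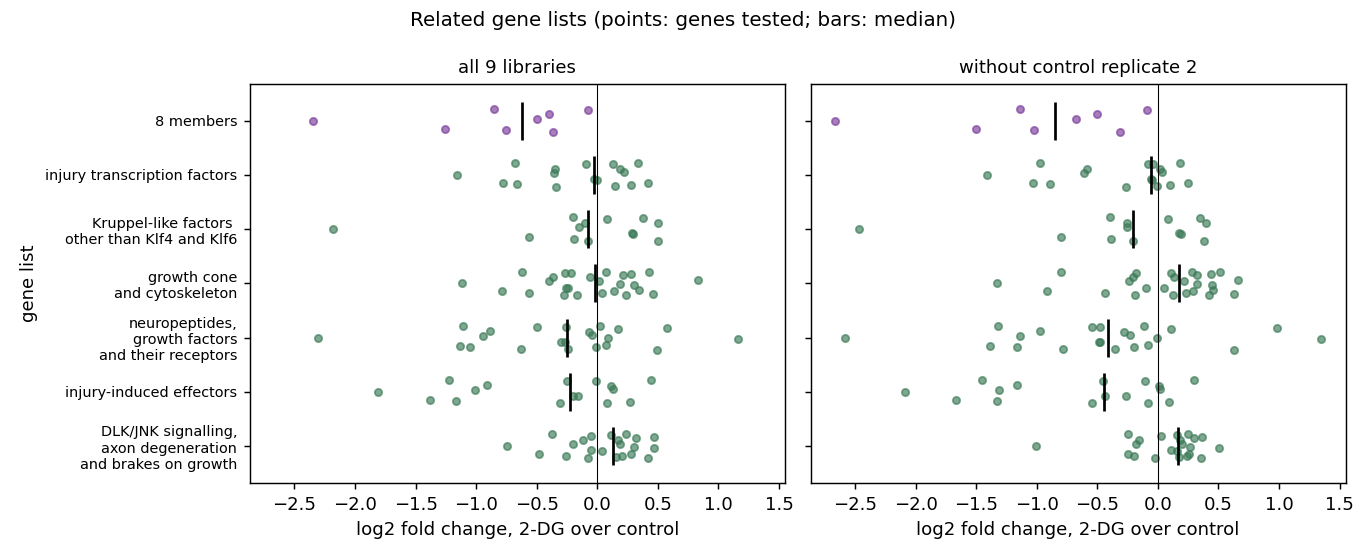
Log2 fold change, 2-DG over control, of the 8 genes and of the tested genes of each related list (points, with the median as a bar), over all 9 libraries (left) and without control replicate 2 (right). The lists of neuropeptides and of injury-induced effectors have medians of -0.25 and -0.22 at the left and -0.42 and -0.45 at the right.

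Marker sums for the cell types of the retina gave the setting of these values, as differences of 2-DG minus control on the log2 scale. Ganglion cell markers ranged from 305 to 1543 CPM in control and from 220 to 794 CPM with 2-DG, a difference of -0.40 (exact permutation p = 0.540, adjusted p = 0.836 over 13 lists), or -0.04 without control replicate 2 and -0.07 without 2-DG replicate 2, -0.23 without control replicate 1, -0.63 without control replicate 4 and -0.68 without 2-DG replicate 3. Muller glia markers ranged from 1382 to 5910 CPM in control and from 549 to 2435 CPM with 2-DG, a difference of -1.26 (exact permutation p = 0.0952, adjusted p = 0.836) that lay between -1.62 and -0.90 when each library was left out in turn. Glul made up most of this sum, with a mean of 2332 of 3149 CPM in control and 960 of 1353 CPM with 2-DG. The means of Rlbp1, Slc1a3 and Sox9 were also lower with 2-DG. Those of Kcnj10 and Aqp4 were higher, though their medians were lower. Bipolar cell markers differed by 0.88 (0.31 without control replicate 5, 1.63 without 2-DG replicate 4), astrocyte markers by 0.51 (0.11 without 2-DG replicate 3, 0.33 without control replicate 2, 0.95 without 2-DG replicate 1), lens markers by -0.65 (-0.43 without control replicate 5) and surface epithelium markers by 0.10 (between 0.0035 without 2-DG replicate 3 and 0.19 without 2-DG replicate 2). For 7 of the 13 lists the sign itself turned under at least 1 of the alternatives. These were rods (-0.23, and 0.25 without control replicate 2), cones (0.51, and -0.30 without 2-DG replicate 3), amacrine cells (0.13, and -0.28 without 2-DG replicate 3 or control replicate 5) and horizontal cells (0.25, and -0.15 without control replicate 5). The others were microglia and macrophages (-0.19, and 0.12 without 2-DG replicate 2), endothelium and pericytes (0.34, and -0.16 without 2-DG replicate 4) and retinal pigment epithelium (0.87, and -0.12 without 2-DG replicate 3). Cone markers differed by 1.13 without control replicate 2. Across the 13 lists, 0 passed an adjusted p of 0.05 and 0 an unadjusted exact permutation p of 0.05. The smallest p this design allows is 0.00794, which for a single list would be 0.103 after adjustment.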

How the data were processed

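RNA-seq was analysed in 9 libraries, 5 of control and 4 of 2-DG explants, grouped by title and treatment label. The protocol text is the same for both groups and names 2-DG, so groups rest on those labels. The labels give 1 batch.

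The authors deposited estimated counts per gene and per transcript, not scaled between libraries. The submitters' processing notes name kallisto and GRCm38. A second deposited file gives CPM for 12568 genes, computed by the authors on adjusted library sizes, which is treated here as a score and used only as an alternative scale. Another holds a table of their own comparison (fold changes, p-values and adjusted p-values) and was not used. In the tables used, 0 columns had no sample.

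Estimated counts were rounded, filtered with filterByExpr, TMM-scaled and fitted with edgeR 4.0.16 (R 4.3.3, glmQLFit with legacy=TRUE and robust=FALSE, glmQLFTest, group as the only term). Benjamini-Hochberg adjustment ran over 21049 genes, or 20632 without control replicate 2, with a threshold of 0.05. DESeq2 1.42.0 and limma 3.58.1 (voom with quality weights) were alternatives. DESeq2 gave no adjusted p for 124 genes over all libraries, of which 1 is in the related lists, and none of the members. Steps were tested on simulated data. CPM use TMM-scaled library sizes. Log2 CPM for correlations had a prior count of 2. Marker genes were summed as CPM, compared on log2(sum + 1) with an exact two-sided permutation test over libraries. The read depth limits values near 3 counts, and such floors cover counting error only. Exon lengths, transcript types and gene positions came from GENCODE M21 on GRCm38, and promoters from RefSeq GRCm38.p6; 141374 of 142699 transcripts matched.

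The members and the lists were chosen with earlier results of these data known. Named by rule were the 8 members, 12 set genes of the related lists, the 2 most abundant genes of each list, any gene past the threshold, and the 5 genes most like Sprr1a; 1 gene that the rule named is not reported here. Gdnf, Itga7, Klf14, Tsc1, Ngfr, Tnfrsf12a, Galr1, Marcksl1, Sox9, Lgals1, Nppc, Hecw2 and the SPRR paralogs were named in addition, after their values were seen. Reads shared with near-identical copies could be divided between genes by the authors' counting; Gap43 overlaps the microRNA gene Mir6540 on the same strand.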

Additional observations from a re-analysis of the deposited data

Results flagged for a closer look

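In 42 groups looked at (8 genes and 13 marker sums, in each of the groups), 7 held a library farther from the others than Dixon's 95% limit allows. For groups not chosen by their values, chance flags about 1 in 20. That rate does not apply to the 8 genes, which were chosen with these values known. Control replicate 2 had also been singled out already, so their distances are given as a description. In the control group, replicate 2 was the far library for 4 of the 8 genes. It had a log2 CPM of -0.35 for Sprr1a, where the other controls were between 5.57 and 6.76. Its log2 CPM was 0.28 for Ecel1, against 4.79 to 6.39 in the others. For Klf4 it was 3.39, against 6.12 to 6.83, and for Sox11 it was 3.25, against 5.14 to 5.83. On log2(summed CPM + 1), the same library was the far one for cone markers, at 9.07 against 5.79 to 6.31. In the 2-DG group, cone markers were far in replicate 3, at 9.56 against 6.15 to 6.58. Horizontal cell markers were far in 2-DG replicate 4, at 5.90 against 8.27 to 8.56.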

How the results depend on the processing

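Over all 9 libraries edgeR called 0 genes, DESeq2 284 and limma-voom 1222. Leaving out 1 library at a time gave between 0 and 16 genes, with 16 without control replicate 2 and 2 without 2-DG replicate 4. Without control replicate 2, where edgeR called 16 genes, upper-quartile factors gave 26, library size alone 116, no filter on low counts 35, DESeq2 780 and limma-voom 2092. In the related lists DESeq2 called 2 genes and limma-voom 8, beside 0 by edgeR. Without control replicate 2 they called 7 and 20, of which the 20 include all 8 that limma-voom called over all libraries. Sprr1a, Gap43, Sox11, Klf4 and Gal kept a negative log2 fold change in all 18 alternatives. Sprr1a ranged from -2.85 to -1.70. Stmn2 was positive in 2 of 18 (at most 0.49), Klf6 in 6 (at most 0.27) and Ecel1 in 3 (at most 0.21). The labels do not say whether the replicate numbers pair the libraries. Same-numbered deviations correlated between -0.15 and 0.45, and others between -0.69 and 0.72. With 4 same-numbered pairs these ranges cannot decide it. With the replicate number as a block, edgeR called 0 genes and 7 of the 8 members were negative, with a median of -0.51. For the marker sums, 0 lists passed under the alternatives, a threshold the design can hardly reach, and 7 of 13 differences turned sign under at least 1 of them. Lens, retinal pigment epithelium and surface epithelium markers could not be summed in the deposited CPM, which left those lists out of that alternative. The causes of these differences were not tested.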

Other observations

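Without control replicate 2, the 5 genes most like Sprr1a over the remaining 8 libraries were Nppc, Gdnf, Lce1g, Hecw2 and Sdc1, of which Lce1g and Sdc1 were also among the 5 over all 9 libraries. Nppc, which encodes the C-type natriuretic peptide, had an r of 0.97 over these 8 libraries and 0.76 over all 9, and Gdnf had 0.97 and 0.88.

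Lgals1, which encodes galectin-1, measured 19.5, 19.0, 13.2, 13.9 and 16.96 CPM in control and 21.3, 22.8, 27.6 and 26.8 CPM with 2-DG, so that every treated library lay above every control library. It was the 1 gene of the 115 tested in the related lists with this layout, beside 1.52% of all genes. Its log2 fold change was 0.58 (SE 0.21, adjusted p = 0.616 by edgeR), and without control replicate 2 limma-voom gave 0.64 (SE 0.16, adjusted p = 0.0371). These genes were named after their values were seen.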
